A study of Mus musculus with 6 samples.

Results

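Chondroitin sulfate proteoglycans were followed through 10 genes in cultured mouse retinal ganglion cells (RGCs), the neurons whose axons form the optic nerve. The genes encode 5 enzymes that build and sulfate the sugar chain (Csgalnact1, Csgalnact2, Chsy1, Chpf and Chst11) and 5 core proteins that carry it (Ncan, Bcan, Vcan, Cspg5 and Ptprz1). They are listed by gene symbol for their role, with earlier results of these data known, and they are 10 of 43346 Ensembl genes in the tables. All 10 passed the filter on low counts, which left 15747 genes to test.

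RNA-seq was done on 6 libraries, 2 each from RGCs that received a control AAV (EGFP alone), a Sox11 AAV (Sox11-IRES-EGFP) or a Sox11 K91A AAV, which carries Sox11 with lysine 91 replaced by alanine so that SUMO cannot be attached there. Every culture was immunopanned for CD90.1, the product of Thy1, received a capsid-mutant AAV2 at 100000 vector genomes per cell and was kept in medium with forskolin, BDNF and CNTF until RNA was taken at 72 h. The sources differ on the age of the cells: the methods give embryonic day 18 for the RNA-seq and postnatal day 2 for RGC cultures in general, and the names of the deposited tables carry P0. All groups share the virus backbone, so that no group is free of AAV. Cells were plated in quadruplicate wells and libraries made in duplicate for each kind of RNA sample, and the sources do not say whether duplicates came from separate cultures. Counts of duplicates differed by more than sampling noise in every group (chi-square over its degrees of freedom of 93.6, 53.0 and 20.0 for control, Sox11 and Sox11 K91A). P-values measure the spread between these libraries, which may be technical.

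Depth was between 27521981 and 37061718 expected counts per library. Sox11 itself, the delivered gene, stood at 234 and 332 CPM (counts scaled to a common library size) in the control libraries, at 9178 and 14590 with the Sox11 AAV and at 11970 and 7026 with the Sox11 K91A AAV, where counts do not separate the viral from the cell's own message. Of 10 RGC markers, all had counts in every library, and their summed level was 10610 to 11440 CPM in control, 5334 to 7967 with Sox11 and 6762 to 8378 with Sox11 K91A. The largest part of this sum was Nefl (means of 6715, 3146 and 3712 CPM). By the thresholds given below, 3 of the 10 markers were lower with Sox11, against 10.2% of all genes tested. These were Thy1, Nefl and Slc17a6 (log2 -2.69, -1.16 and -0.83). With Sox11 K91A 1 was lower, Slc17a6 (log2 -0.85), against 4.81% of all genes. None was called higher, and 7 of the 10 markers did not pass with Sox11 and 9 did not with Sox11 K91A. Median log2 fold changes over the 10 were -0.18 and -0.15. Xist, a marker of female cells, was low in control replicate 2 (95.9 CPM) and Sox11 replicate 2 (254 CPM) against 400 to 526 CPM in the other 4 libraries.

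Chondroitin sulfate is a chain of alternating glucuronic acid and N-acetylgalactosamine that is built on a core protein in the Golgi. The chain is started by an N-acetylgalactosaminyltransferase, extended by chondroitin synthases and sulfated at set positions, and the sulfation pattern changes what the chain binds. In the central nervous system these proteoglycans fill the matrix around neurons, form perineuronal nets and accumulate in the glial scar, where they are known for halting growing axons. Lecticans such as neurocan, brevican and versican bind hyaluronan, while Cspg5 and the receptor phosphatase Ptprz1 span the membrane.

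With the Sox11 AAV, 7 of the 10 genes passed the thresholds (limma-voom, adjusted p under 0.05 and a fold change above 1.2): Vcan, Ncan, Ptprz1 and Chsy1 rose, and Cspg5, Chpf and Bcan fell. Over all genes tested 20.1% passed, 9.96% as higher and 10.2% as lower. With the Sox11 K91A AAV, 5 of the 10 passed, against 10.6% of all genes (5.81% higher and 4.81% lower): Vcan, Ncan and Ptprz1 rose, and Cspg5 and Chpf fell. The libraries of the Sox11 group did not overlap those of control for 8 of the 10, against 61.5% of all genes, and those of Sox11 K91A for 9 of the 10, against 61.9%. Both comparisons use the same 2 control libraries, so the second is no independent repeat of the first. In bulk RNA, fewer cells of a type and less RNA per cell cannot be told apart. The median log2 fold change over the 10 genes was 0.09 with Sox11 and 0.03 with Sox11 K91A, beside 0.01 and 0.02 over all genes tested. With 2 libraries a group, single libraries decide many calls. Without Sox11 replicate 2, none of the 15747 genes passed against control, and for Sox11 K91A none passed without control replicate 2 or without Sox11 K91A replicate 1, and 2 of the 10 passed without Sox11 K91A replicate 2. Without control replicate 2, 3 of the 10 passed for Sox11. Directions of all called genes held in each of these fits.

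**Figure D1:**
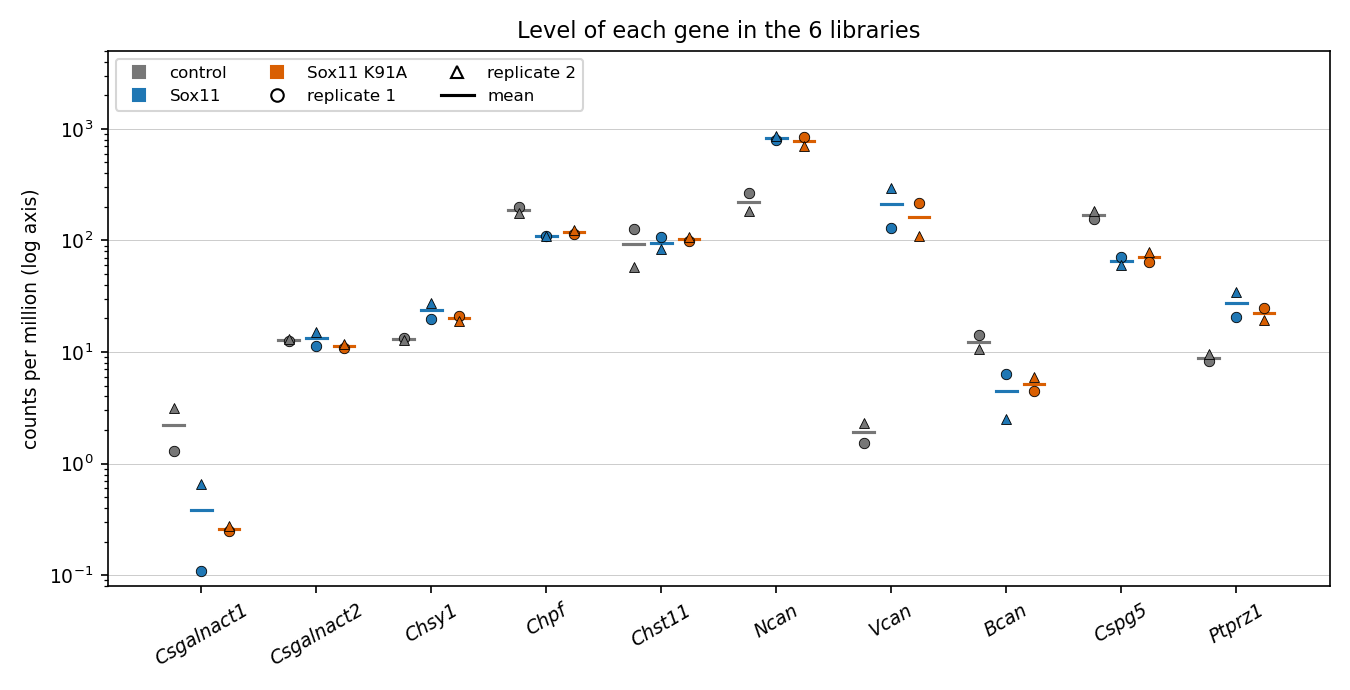
Level of each of the 10 genes in CPM (log axis) in every library, with grey for control, blue for Sox11 and orange for Sox11 K91A, circles and triangles for replicates 1 and 2 and a bar for the mean of 2. Vcan sits near 2 CPM in control and between 110 and 295 CPM in the 4 libraries with a Sox11 virus.

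Genes that rose or fell with both viruses are shown by the 250 bases before their RefSeq transcription start (GRCm38.p6), read on the gene's own strand. A window was at hand for 8 of the 10 genes, and for neither Csgalnact1 nor Cspg5. Of the genes shown, Vcan, Ncan and Ptprz1 rose and Chpf fell. Cspg5 also fell with both viruses but could not be shown. Capitals mark the GC box GGGCGG, the CREB motif TGACGTCA (the cAMP response element) and their reverse complements, which were picked after the sequences were seen. The windows are chr13:89742513-89742762 (minus strand) for Vcan, chr8:70120845-70121094 (minus) for Ncan, chr6:22875252-22875501 (plus) for Ptprz1 and chr1:75479472-75479721 (minus) for Chpf.
Vcan: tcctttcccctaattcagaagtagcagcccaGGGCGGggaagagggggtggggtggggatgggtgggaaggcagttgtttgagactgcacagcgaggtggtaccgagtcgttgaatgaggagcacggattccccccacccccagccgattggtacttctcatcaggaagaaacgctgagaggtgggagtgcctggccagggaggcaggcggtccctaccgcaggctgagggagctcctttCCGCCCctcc
Ncan: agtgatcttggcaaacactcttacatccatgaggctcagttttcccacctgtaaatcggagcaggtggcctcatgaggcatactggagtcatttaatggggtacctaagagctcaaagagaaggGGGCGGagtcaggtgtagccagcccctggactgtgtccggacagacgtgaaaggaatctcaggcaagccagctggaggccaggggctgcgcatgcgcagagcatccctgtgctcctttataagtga
Ptprz1: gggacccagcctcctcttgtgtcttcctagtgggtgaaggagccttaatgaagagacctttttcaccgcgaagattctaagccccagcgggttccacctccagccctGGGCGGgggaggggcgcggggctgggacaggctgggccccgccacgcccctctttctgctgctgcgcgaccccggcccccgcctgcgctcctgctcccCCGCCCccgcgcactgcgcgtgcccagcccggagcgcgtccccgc
Chpf: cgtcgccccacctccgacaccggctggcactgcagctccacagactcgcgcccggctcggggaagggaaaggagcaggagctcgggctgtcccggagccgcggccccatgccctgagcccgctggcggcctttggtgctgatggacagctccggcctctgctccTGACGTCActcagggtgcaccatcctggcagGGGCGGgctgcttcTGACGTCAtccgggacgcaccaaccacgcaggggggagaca
The Sox core motifs ACAAAG and ACAATG, on either strand, were in none of the 9 windows of the 8 genes, while 16.5% and 10.7% of 32817 mouse promoter windows of this length hold them. This says only that those letters are not in these 250 bases. A GC box was in 8 of the 9 windows, against 32.7% of all. The box holds only G and C, and the windows were 54.4% (Ncan) to 71.6% (Ptprz1) G and C. Since the box was also picked from these windows, this contrast is no test of enrichment. The CREB motif was found in Chpf alone, at -86 to -79 and at -41 to -34 from the RefSeq start, and 1.55% of all windows hold it. RefSeq starts can differ from those of the GENCODE M21 annotation, used for gene coordinates. The Chpf window begins at 75479472, outside the GENCODE gene, which reaches 75479307. The Ncan window begins inside the GENCODE gene, which reaches 70120873. For Chpf, Bcan, Chsy1 and a Csgalnact2 window, bases shortly after the RefSeq start were in no GENCODE transcript of the gene. The GC box stood before genes that rose and before genes that fell.

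Vcan encodes versican, a large hyaluronan-binding lectican of developing tissue. Gene ENSMUSG00000021614 lies on the minus strand of GRCm38 at chr13:89655312-89742509. It stood at 1.54 and 2.31 CPM in control (43 and 89 counts), at 130 and 295 CPM with Sox11 and at 217 and 110 CPM with Sox11 K91A. The message was scarce in both control libraries and abundant in all 4 others, with a gap between the groups far wider than that between replicates. The rise was 101-fold with Sox11 (log2 6.65, 95% interval 4.66 to 8.65, adjusted p = 0.0115) and 79.5-fold with Sox11 K91A (log2 6.31, interval 4.32 to 8.31, adjusted p = 0.0164). The call was lost for Sox11 without Sox11 replicate 2 (adjusted p = 0.0546) or control replicate 2 (0.0671), and for Sox11 K91A without control replicate 1 (0.0528), control replicate 2 (0.0972) or Sox11 K91A replicate 1 (0.0646). Over all leave-one-out fits the log2 fold change ran from 6.07 to 7.25 (Sox11) and from 5.83 to 6.80 (Sox11 K91A). With the other alternatives of processing included, it ran from 4.82 to 7.25 (Sox11) and from 4.44 to 6.98 (Sox11 K91A).

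Versican is spliced into forms that differ in the exons on which chondroitin sulfate chains are attached. In GENCODE M21, the longest coding transcript (V0, 12427 bases, of which 10062 code) holds both attachment exons, V1 (8332 bases) lacks one of 2880 bases at chr13:89702918-89705797, V2 (5702 bases) lacks one of 5217 bases at chr13:89688285-89693501, and V3 (2321 bases) lacks both. The abundance-weighted Vcan transcript length, as the authors' RSEM tables list it, was 9623 and 10282 bases with Sox11 and 10222 and 9724 bases with Sox11 K91A. These 4 values lie between V1 and V0. Since no other listed Vcan transcript is longer than V1, at least 31.5% and 47.6% of Vcan transcripts with Sox11, and at least 46.2% and 34.0% with Sox11 K91A, were assigned to the longest form. The control values, 5250 and 12427 bases, rest on 43 and 89 counts and span most of the range of forms, so no shift of form between groups could be read. They also turn the order of the control replicates on the per-length scale, where TPM values, which divide by transcript length, were 0.60 and 0.34. The tables were made with an annotation older than M21, with the same 9 Vcan transcripts, and assignment of short reads to forms is an estimate.

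**Figure D2:**
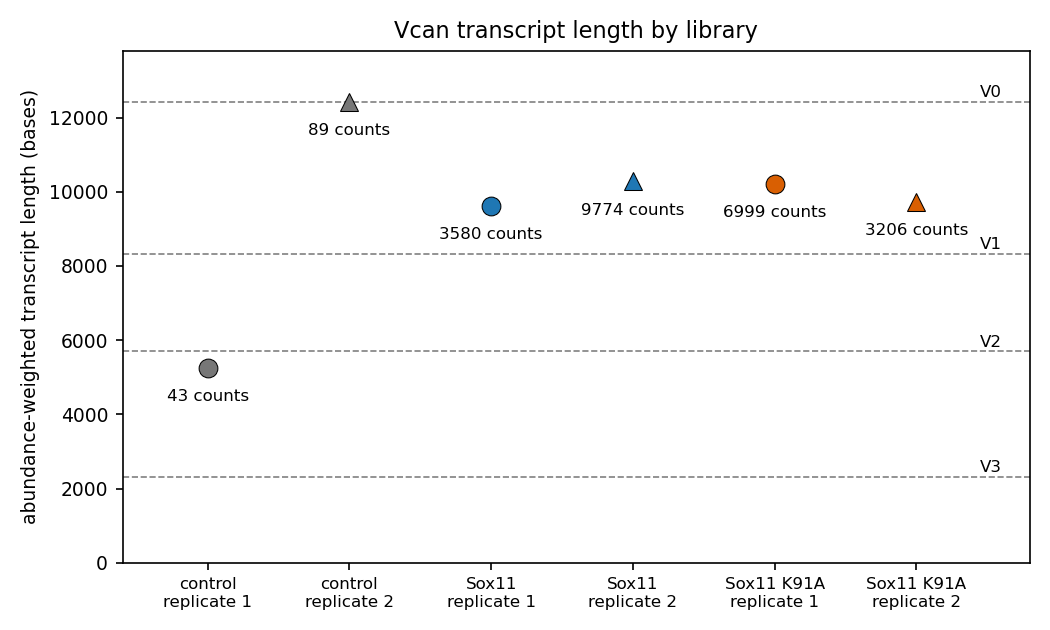
Abundance-weighted Vcan transcript length in bases for each library, with the expected count written under each point and dashed lines at the lengths of the 4 main coding forms V0 to V3. The 4 libraries with a Sox11 virus sit between V1 and V0 (9623 to 10282 bases), and the control libraries, with 43 and 89 counts, lie far apart.

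Ncan encodes neurocan, a lectican that neurons as well as glia make during development. The gene lies on the minus strand at chr8:70093085-70120873. Its level was 264 and 183 CPM in control, 790 and 867 CPM with Sox11 and 836 and 707 CPM with Sox11 K91A. The lowest library with a Sox11 virus was far above the higher control library. Ncan rose 3.76-fold with Sox11 (log2 1.91, interval 1.42 to 2.40, adjusted p = 0.0109) and 3.49-fold with Sox11 K91A (log2 1.80, interval 1.31 to 2.30, adjusted p = 0.0132). The call was lost for Sox11 without Sox11 replicate 2 (adjusted p = 0.0745), and for Sox11 K91A without control replicate 2 (0.0561) or Sox11 K91A replicate 1 (0.108).

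Ptprz1 encodes a receptor-type tyrosine phosphatase whose secreted ectodomain form is phosphacan, a proteoglycan in its own right. It lies on the plus strand at chr6:22875502-23052916. Its level was low in control, at 8.27 and 9.52 CPM, against 20.5 and 34.5 CPM with Sox11 and 25.0 and 19.4 CPM with Sox11 K91A, with no overlap of either group with control. The rise was 3.00-fold (log2 1.59, interval 0.84 to 2.34, adjusted p = 0.0213) and 2.47-fold (log2 1.31, interval 0.54 to 2.07, adjusted p = 0.0483). The call was lost for Sox11 without control replicate 1 (adjusted p = 0.0544), control replicate 2 (0.0713) or Sox11 replicate 2 (0.0985), and for Sox11 K91A without any of the 4 libraries compared (0.104 to 0.341). Only 1 Ptprz1 transcript is in the tables, so the membrane and secreted forms were not told apart.

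Cspg5 encodes neuroglycan C, a transmembrane proteoglycan of neurons with an EGF-like domain. It lies on the plus strand at chr9:110243783-110262576. In control it stood at 156 and 184 CPM, with Sox11 at 71.6 and 60.2 CPM and with Sox11 K91A at 64.0 and 79.3 CPM. All 4 libraries with a Sox11 virus lay below both control libraries. The level fell 2.58-fold with Sox11 (log2 -1.37, interval -1.79 to -0.95, adjusted p = 0.0115) and 2.38-fold with Sox11 K91A (log2 -1.25, interval -1.67 to -0.83, adjusted p = 0.0181). The call was lost for Sox11 without Sox11 replicate 2 (adjusted p = 0.077), and for Sox11 K91A without control replicate 2 (0.0571) or either Sox11 K91A replicate (0.186 and 0.0534).

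Bcan encodes brevican, the lectican of mature brain and of perineuronal nets. It lies on the minus strand at chr3:87987531-88000230. It read 14.1 and 10.7 CPM in control, 6.37 and 2.53 CPM with Sox11 and 4.44 and 6.00 CPM with Sox11 K91A. The groups with a Sox11 virus lay below control without overlap, while the Sox11 replicates differed more from each other than the control replicates did. The fall passed with Sox11 (3.08-fold, log2 -1.62, interval -2.60 to -0.65, adjusted p = 0.0368), and edgeR's quasi-likelihood test gave an adjusted p of 0.063. For Sox11 K91A the log2 fold change was -1.23 (interval -2.15 to -0.31), which did not pass (adjusted p = 0.0852) but passed with DESeq2 (0.0422). The Sox11 call was lost without any library but Sox11 replicate 1 (adjusted p = 0.0572 to 0.208), and the Sox11 K91A value passed without either Sox11 replicate (0.0458 and 0.0456).

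The balance among the core proteins is clearest per length, as TPM. Summed over the 5 core proteins, 174 and 149.0 TPM in control became 303 and 354 TPM with Sox11 and 320.5 and 271 TPM with Sox11 K91A. Cspg5 held the largest share of the sum in both control libraries (48.5% and 60.7%), ahead of Ncan (42.8% and 31.5%). Ncan held between 70.8% and 74.5% in the 4 libraries with a Sox11 virus. Vcan went from 0.35% and 0.23% of the sum in control to between 8.26% and 16.7%. Bcan fell to at most 1.98% from 7.21% and 6.17%.

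**Figure D3:**
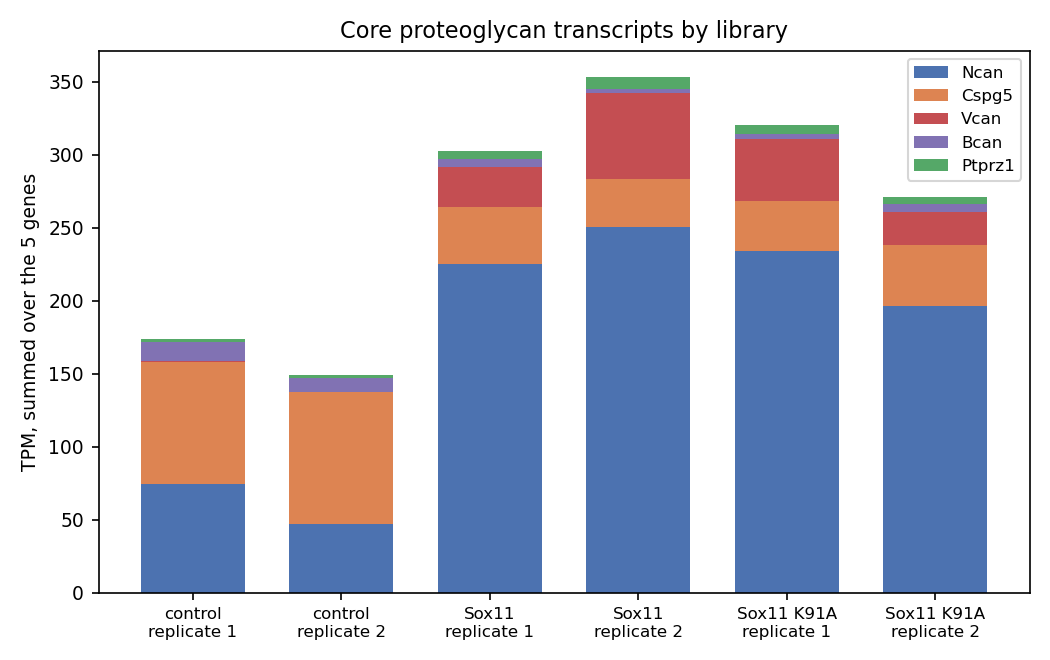
TPM of the 5 core proteins stacked by library, with a colour for each gene and the bar height their sum. The 2 control bars reach 174 and 149.0 TPM with Cspg5 the largest block, and the 4 bars with a Sox11 virus reach 271 to 354 TPM with Ncan the largest block and Vcan visible.

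Of 6 genes for chain polymerization, 1 rose (Chsy1) and 2 fell (Chpf and Chpf2) with Sox11, and 1 fell (Chpf) with Sox11 K91A. Over all genes tested, 9.96% rose and 10.2% fell with Sox11, and 5.81% rose and 4.81% fell with Sox11 K91A. Chondroitin synthase Chsy1, on the plus strand at chr7:66109515-66173798, adds both sugars in turn. It read 13.3 and 12.7 CPM in control, 19.8 and 27.8 CPM with Sox11 and 21.2 and 18.9 CPM with Sox11 K91A, so that every library with a Sox11 virus was above both controls. Chsy1 rose with Sox11 (1.82-fold, log2 0.86, interval 0.35 to 1.38, adjusted p = 0.036), while with Sox11 K91A a log2 value of 0.62 (interval 0.10 to 1.15) did not pass (adjusted p = 0.112). The call for Sox11 was lost without any library but Sox11 replicate 1 (0.0613 to 0.196). Of the exon bases of Chsy1, 148 (3.54%) are shared with Gm26827 on the opposite strand, and the use of strand in counting is not given, so a part of these reads cannot be assigned to either gene with certainty.

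Chpf encodes the chondroitin polymerizing factor, the partner that Chsy1 needs to lengthen a chain. On the minus strand at chr1:75474569-75479307, it stood at 198 and 175 CPM in control, at 109 and 110 CPM with Sox11 and at 114 and 123 CPM with Sox11 K91A. Replicates lay close together and all 4 libraries with a Sox11 virus were below control. Chpf fell 1.71-fold with Sox11 (log2 -0.77, interval -1.10 to -0.45, adjusted p = 0.0166) and 1.58-fold with Sox11 K91A (log2 -0.66, interval -0.98 to -0.34, adjusted p = 0.0326). Without Sox11 replicate 2 the Sox11 call was lost (adjusted p = 0.107), and the Sox11 K91A call was lost without control replicate 2 (0.0571) or either Sox11 K91A replicate (0.355 and 0.141). Chpf2, a related polymerizing factor, read 81.7 and 59.1 CPM in control, 41.3 and 30.6 CPM with Sox11 and 37.1 and 40.4 CPM with Sox11 K91A. It fell with Sox11 (log2 -0.97, adjusted p = 0.0271) and stood at log2 -0.84 with Sox11 K91A (adjusted p = 0.0516). Chsy3, another synthase, was near 1 CPM in every library (0.62 to 1.35 CPM) and did not pass.

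Csgalnact1 and Csgalnact2 encode the enzymes that add the first N-acetylgalactosamine and so commit a linker to chondroitin sulfate. Csgalnact1, on the minus strand at chr8:68356781-68735146, gave 36 and 121 counts in control (1.29 and 3.14 CPM), 3 and 22 with Sox11 (0.11 and 0.66 CPM) and 8 and 8 with Sox11 K91A (0.25 and 0.27 CPM). All 4 libraries with a Sox11 virus were below control, at levels of few counts. The log2 fold changes of -2.79 (interval -4.89 to -0.68, adjusted p = 0.0661) and -2.94 (interval -5.07 to -0.82, adjusted p = 0.0794) did not pass with limma-voom, and DESeq2 gave adjusted p-values of 0.0348 and 0.0121. Without control replicate 1 they passed as well (0.0369 and 0.0425). Csgalnact2, on the minus strand at chr6:118107452-118139140, read 12.6 and 13.0 CPM in control, 11.4 and 15.1 CPM with Sox11 and 10.8 and 11.7 CPM with Sox11 K91A. Its log2 fold change was 0.05 (interval -0.44 to 0.53, adjusted p = 0.886) and -0.19 (interval -0.69 to 0.31, adjusted p = 0.592), and with Sox11 its libraries overlapped those of control.

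Chst11 encodes the 4-O-sulfotransferase that makes the commonest sulfated unit of the chain. It lies on the plus strand at chr10:82985498-83195900. The control replicates differed most, at 127 and 58.2 CPM, against 107 and 83.4 CPM with Sox11 and 99.4 and 106 CPM with Sox11 K91A, so the groups overlapped. The log2 fold changes were 0.14 (interval -0.67 to 0.94, adjusted p = 0.803) and 0.26 (interval -0.56 to 1.07, adjusted p = 0.665). Their sign rests on which control library is kept: without control replicate 1 they were 0.70 (adjusted p = 0.0456) and 0.82 (0.0405), and without control replicate 2 they were -0.43 (0.138) and -0.32 (0.289). A related sulfotransferase, Chst12, did not pass in either comparison. Chst15, which adds a second sulfate to a 4-sulfated unit, rose with Sox11 from a mean of 20.5 to 37.8 CPM (log2 0.86, adjusted p = 0.0295). With Sox11 K91A its mean was 34.05 CPM (log2 0.73), which did not pass (adjusted p = 0.062).

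**Figure D4:**
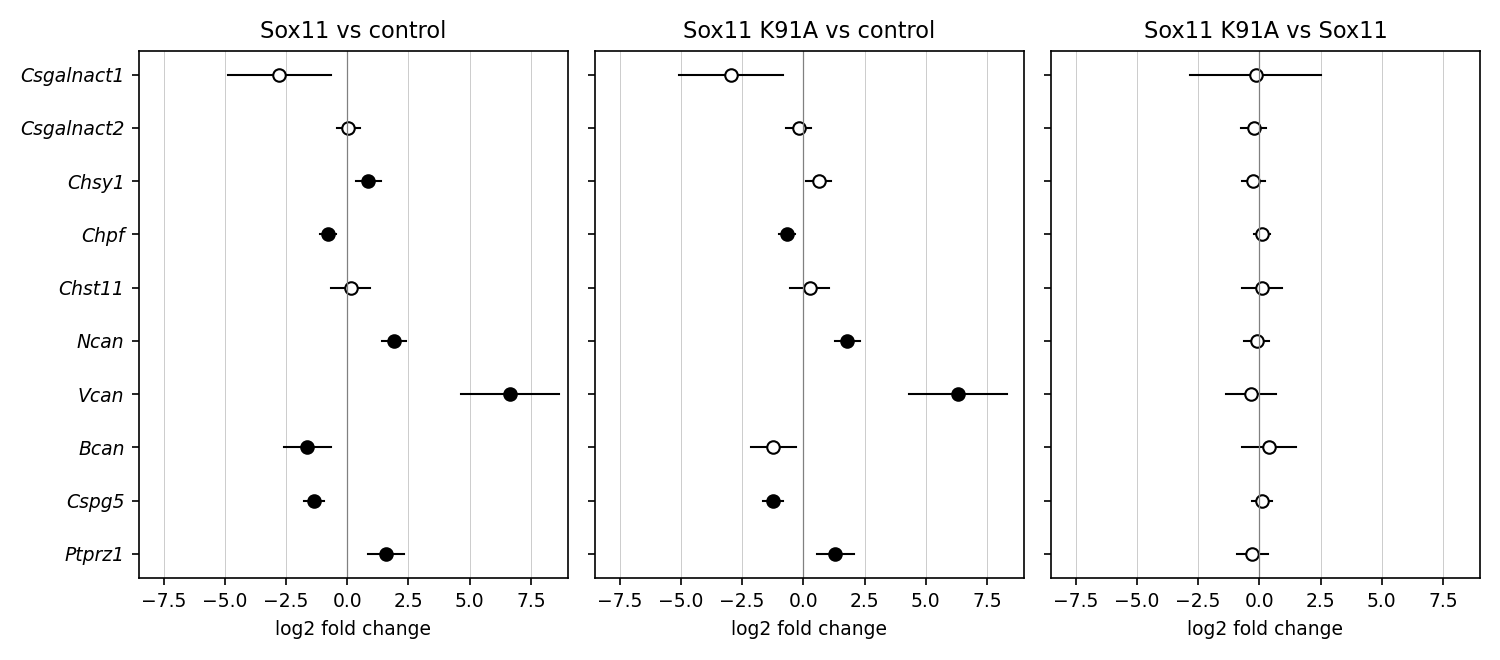
Log2 fold change of the 10 genes with its 95% interval for each virus with a Sox11 insert against control (left, Sox11 and middle, Sox11 K91A) and for the direct comparison of both forms (right), filled where the thresholds were passed. Filled points number 7, 5 and 0 from left to right, and every interval in the right panel includes 0.

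Sox11 K91A and Sox11 were compared directly, which asks whether loss of the SUMO site changes these genes. None of the 10 passed, and 0.0% of all genes did. At an unadjusted p under 0.05 there were 108 genes and none of the 10, but without Sox11 replicate 1 there were 1247 genes and Ptprz1 of the 10 (39 to 123 genes without any other library). No gene passed the adjusted threshold in any of these fits. edgeR also called none and DESeq2 called 2 genes, neither of them among the 10. Log2 differences (Sox11 K91A minus Sox11) ran from -0.34 for Vcan (interval -1.37 to 0.69) to 0.39 for Bcan (interval -0.71 to 1.49). The narrowest interval was that of Chpf (-0.21 to 0.44), and the widest that of Csgalnact1 (-2.83 to 2.52). These intervals do not show that both forms of Sox11 act alike. The groups did not overlap for 1 of the 10, Chpf, against 26.6% of all genes.

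Levels within the 4 libraries with a Sox11 virus were set beside that of Sox11. It was highest in Sox11 replicate 2, then in Sox11 K91A replicate 1, Sox11 replicate 1 and Sox11 K91A replicate 2. Vcan, Ncan, Ptprz1 and Chsy1, the genes that rose, all had this order, and Cspg5 had exactly the opposite order. The other 5, among them Chpf and Bcan, which also fell, had neither order. Over all genes tested, 12.5% had the order of Sox11 and 13.9% the opposite one, while of the 1568 genes that rose with Sox11 51.1% had the same order and of the 1603 that fell 51.3% had the opposite one. The order was looked for after the values were seen, and Sox11 replicate 2 was also low in Xist and in Thy1 (46.3 CPM, against 154 to 312 in the other 3). What these libraries share besides the level of Sox11 was not tested.

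Levels of the 10 genes can be ranked per length. In control, Chpf was highest (131 ± 19.6 TPM, SD, n = 2), followed by Cspg5 (87.3 ± 4.41), Ncan (60.6 ± 19.3) and Chst11 (33.4 ± 19.4), of which Ncan and Chst11 overlapped. Bcan (10.9 ± 2.34), Csgalnact2 (7.14 ± 0.58) and Chsy1 (6.21 ± 0.59) followed, and Ptprz1 (2.12 ± 0.071), Csgalnact1 (1.43 ± 1.00) and Vcan (0.47 ± 0.18) were lowest, where Ptprz1 and Csgalnact1 overlapped. Ncan was highest with both Sox11 viruses, at 238 ± 17.7 TPM with Sox11 and 215 ± 26.7 TPM with Sox11 K91A. Vcan moved from last place to the third with Sox11 (43.3 ± 22.2 TPM) and the fifth with Sox11 K91A (32.4 ± 14.1 TPM), where it overlapped with Cspg5 and Chst11 in both groups.

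The wider pathway was read from 72 symbols, of which 64 could be tested. With Sox11, 10 rose and 11 fell, and with Sox11 K91A 8 rose and 7 fell, which includes the 10 genes. Of the other 54, 6 rose and 8 fell with Sox11, and 5 rose and 5 fell with Sox11 K91A, while over all genes tested 20.1% and 10.6% passed. Of 15 linker and precursor enzymes tested, 2 rose with both viruses and none fell. B4galt7, which adds the first galactose of the linker, went from a mean of 27.1 CPM to 51.2 and 50.2 CPM (adjusted p = 0.0131 and 0.0203), and Papss1, which makes the sulfate donor, from 82.4 to 149 and 137 CPM (adjusted p = 0.0150 and 0.0285). Heparan sulfate is built on the same linker. None of the 8 enzymes listed for that branch passed in either comparison, beside the 20.1% and 10.6% of all genes.

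Among partners in the matrix, Has3, a hyaluronan synthase, read 8.70 and 6.85 CPM in control, 23.9 and 27.0 CPM with Sox11 and 25.2 and 23.8 CPM with Sox11 K91A. It rose with both (log2 1.74 and 1.68, adjusted p = 0.0112 and 0.0140). Tnc, tenascin-C, a matrix glycoprotein that lecticans bind, fell with both (log2 -1.11 and -1.23, adjusted p = 0.0262 and 0.0305). Acan, the cartilage and perineuronal net lectican aggrecan, read 45.3 and 12.5 CPM in control, 2.40 and 0.42 CPM with Sox11 and 0.47 and 3.74 CPM with Sox11 K91A. Its log2 fold changes of -4.54 and -4.13 did not pass (adjusted p = 0.0598 and 0.0807), with control replicates far apart. Cspg4, NG2, had at most 7 counts in a library and was not tested.

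Of 5 receptors listed, Ptprd, a type IIa receptor phosphatase, rose from 89.2 and 58.5 CPM to 181 and 294 CPM with Sox11 and 214 and 157 CPM with Sox11 K91A (log2 1.67 and 1.35, adjusted p = 0.0173 and 0.0392). The Nogo receptors Rtn4r and Rtn4rl1 fell with Sox11 (log2 -0.98 and -0.89, adjusted p = 0.0266 and 0.0356). With Sox11 K91A they stood at log2 -0.64 and -0.65, which did not pass (adjusted p = 0.0904 and 0.103). Of 14 genes for breakdown, Galns and Gusb, lysosomal enzymes, and Adamts1 and Adamts15, proteases that cut lecticans, fell with both viruses. In each comparison 9 of the 14 did not pass. Over all genes tested, 20.1% passed with Sox11 (10.2% as lower) and 10.6% with Sox11 K91A (4.81% as lower). The median log2 fold change of the 14 was 0.009 with Sox11 and -0.24 with Sox11 K91A, beside 0.009 and 0.017 over all genes. Adamts1 went from 40.6 and 23.8 CPM to 8.99 and 3.62 CPM with Sox11 and 5.52 and 9.43 CPM with Sox11 K91A (log2 -2.46 and -2.09, adjusted p = 0.0206 and 0.0359). Adamts4, another such protease, rose with Sox11 K91A (log2 1.49, adjusted p = 0.0431) and was 2.29-fold higher, without passing, with Sox11 (adjusted p = 0.0559). Ids, a lysosomal sulfatase, rose with Sox11 (log2 0.87, adjusted p = 0.0309) and stood at log2 0.62 with Sox11 K91A (adjusted p = 0.0945). Neither passed in the direct comparison.

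**Figure D5:**
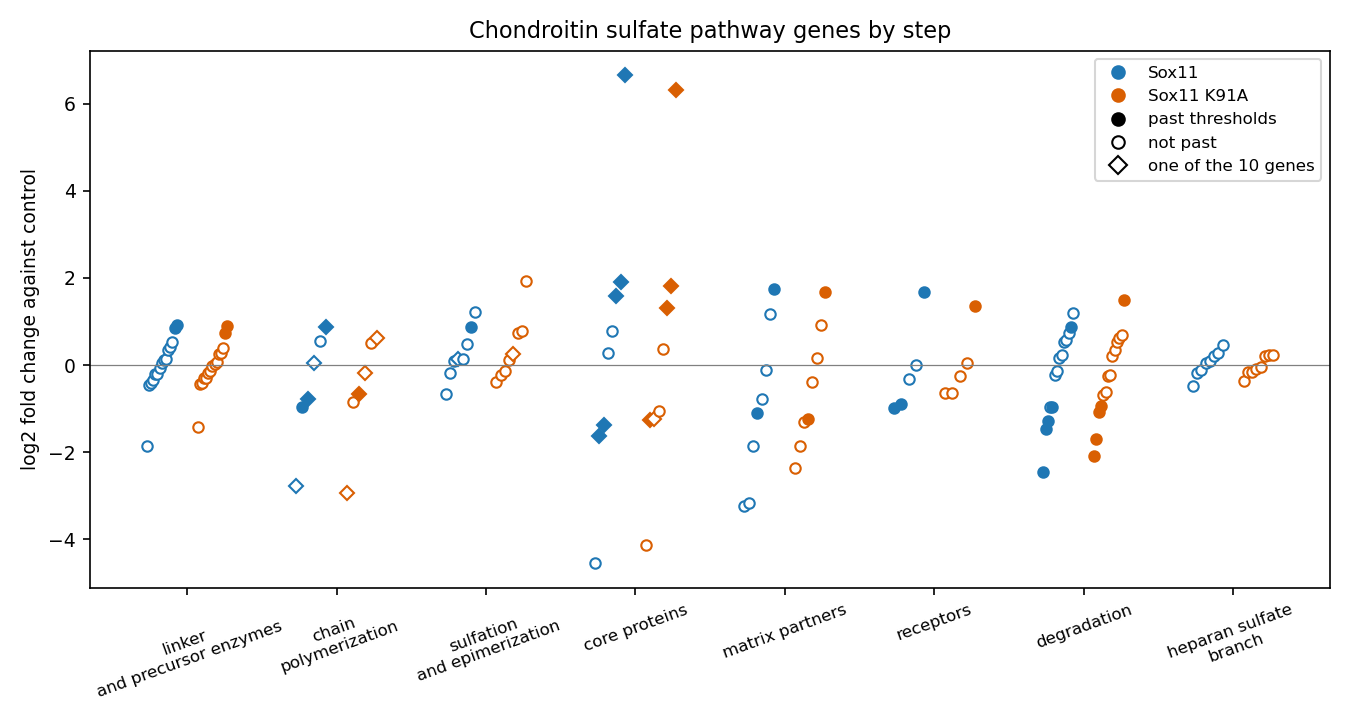
Log2 fold change against control of each tested pathway gene, grouped by step, with blue for Sox11 and orange for Sox11 K91A, filled where the thresholds were passed and diamonds for the 10 genes. Vcan stands at the top of the core proteins at 6.65 and 6.31, and no point of the heparan sulfate branch is filled.

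Markers of other cell types moved beside these genes, and their part in the results was not tested. Glial cells make several of the same proteoglycans. The summed level of 12 astrocyte and Müller glia markers was 288 to 321 CPM in control, 511.1 to 511.5 CPM with Sox11 and 511 to 533 CPM with Sox11 K91A, and of 9 tested, Glul, glutamine synthetase, was called, higher with both viruses (means of 101 CPM in control, 284 CPM with Sox11 and 289 CPM with Sox11 K91A). Glul made most of the rise of the sum. The other 8 did not pass, and the median log2 fold change of the 9 was -0.30 with Sox11 and 0.02 with Sox11 K91A. Among them the glial genes Slc1a3, Sox9, Rlbp1 and Rax had means of at most 2.44 CPM in any group and log2 values of -2.13, -1.66, -2.51 and -0.82 with Sox11. With Sox11 K91A these were -1.10, -2.94, -2.70 and -1.395. Aldh1l1, also scarce (means of at most 1.41 CPM), went the other way, with log2 values of 0.88 with Sox11 and 1.0 with Sox11 K91A. Vim stood at 0.30 and 0.335, Slc1a2 at 0.07 and 0.10 and Apoe at -0.30 and 0.02. Gfap had 0 counts in all 6 libraries, and Aqp4 at most 8. Of 7 markers of the oligodendrocyte lineage, Olig2 was at 0 and Sox10 had at most 3 counts in every library, and the sum was 61.4 to 74.0 CPM in control, 58.0 to 63.2 CPM with Sox11 and 64.0 to 69.0 CPM with Sox11 K91A. Pdgfra, which marks oligodendrocyte precursors, had 5 and 3 counts in control, 24 and 29 with Sox11 and 30 and 11 with Sox11 K91A, and passed with Sox11 (adjusted p = 0.0493).

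Microglial markers summed to at most 2.05 CPM in any library. Fibroblast and vascular markers summed to 16.0 to 16.9 CPM in control, 11.6 to 31.7 CPM with Sox11 and 15.7 to 22.6 CPM with Sox11 K91A, with Pecam1 alone called (Sox11 K91A). Markers of other retinal neurons summed to 192 to 347 CPM in control, 109 to 186 CPM with Sox11 and 168 to 180 CPM with Sox11 K91A, where Prkca and Slc6a9 fell with both viruses. Gad2 and Prkca made most of that sum in control, and the other 9 of the 11 tested did not pass, among them Onecut1, Tfap2a and Tfap2b with log2 values of 1.44, 2.06 and 1.15 with Sox11 and 1.31, 2.62 and 2.13 with Sox11 K91A. Progenitor and cycling markers summed to 346 to 448, 356 to 402.5 and 387 to 413 CPM, with Nes lower in both comparisons. Pax6 made most of this sum (means of 348, 352 and 369 CPM), and 7 of the 8 markers did not pass. Among these, Hes1 and Mki67 stood at log2 -2.03 and -1.44 with Sox11 and -1.42 and -1.39 with Sox11 K91A. Sox2 stood at 1.40 and 2.25, with control replicates of 7.66 and 0.62 CPM. Thy1, by whose product the cells were selected, read 725 and 689 CPM in control, 259 and 46.3 CPM with Sox11 and 154 and 312 CPM with Sox11 K91A, and passed with Sox11 (adjusted p = 0.0478), as did Nefl. Slc17a6 fell with both viruses.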

How the data were processed

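RNA-seq libraries of cultured mouse RGCs (control, Sox11 and Sox11 K91A AAV, 2 each) were taken as the authors deposited them, 1 RSEM table per library. The authors aligned reads to mm10 with STAR and gave expected counts per gene, which are not normalized, and TPM values, which RSEM scales per length and to the same total in every library. The deposited tables also list an abundance-weighted transcript length and lower and upper bounds of RSEM's posterior estimate (signal columns whose level is not given), of which only the length was used in the text. The sources used here do not give tool versions, the gene annotation or whether counting was stranded. Symbols and coordinates came from GENCODE M21 (GRCm38), matched by Ensembl ID without its version, and promoter windows from RefSeq (GRCm38.p6).

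Expected counts were rounded, genes were kept with filterByExpr of edgeR (version 4.0.16) and libraries were scaled with TMM. CPM values use the scaled library sizes. limma-voom (limma version 3.58.1, R 4.3.3) was fitted to all 6 libraries at once, with Benjamini-Hochberg adjustment over 15747 genes, and calls needed an FDR under 0.05 with a fold change above 1.2 in either direction. Where no tool is named, an adjusted p is limma-voom's two-sided value, and intervals are its 95% confidence intervals. The fit was tested on simulated data with known changes, where it missed most of the smaller ones and unchanged genes made up more of its calls than the FDR threshold allows. Depth sets the counting error of each value, and intervals between groups come from the spread between replicates. Alternatives were sample quality weights, DESeq2 (version 1.42.0), edgeR's quasi-likelihood test, limma-trend on log2(TPM + 1) and log2(TPM + 0.1), other scalings and filters, unrounded counts, a fit of the 2 groups alone, blocks for replicate number or low Xist, and leaving out each library. The 10 genes, the pathway and marker lists and the naming rule (all 10 genes, any listed pathway gene past the thresholds, Chsy3, Chpf2, Chst12, Acan and Cspg4 whatever they do, and markers with their list) were chosen with earlier results of these data known. Replicates were compared within groups and differed by more than sampling noise. Python 3.11.15 with matplotlib 3.10.9 drew the figures.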

Additional observations from a re-analysis of the deposited data

How the results depend on the processing

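Of the 7 genes that passed with Sox11 and the 5 with Sox11 K91A, none changed direction in any alternative. The count of the 10 genes passing for Sox11 was 4 with sample quality weights and 0 to 7 over leave-one-out fits, and for Sox11 K91A it was 3 on log2(TPM + 1), 3 on log2(TPM + 0.1) and 0 to 6 over leave-one-out fits. Among all genes, Sox11 against control gave 3171 calls, but 979 with quality weights, 2107 on log2(TPM + 0.1), 1637 with only the 2 groups compared and 0 to 3742 over leave-one-out fits. Sox11 K91A against control gave 1672, but 3144 with DESeq2, 936 on log2(TPM + 1), 896 on log2(TPM + 0.1), 2894 with a block for the libraries low in Xist and 0 to 2529 over leave-one-out fits. Pathway genes called numbered 9 (quality weights), 13 (log2(TPM + 0.1)), 32 (low-Xist block) and 0 to 21 (leave-one-out) for Sox11 against 21, and 23 (DESeq2), 6 and 6 (log2(TPM + 1) and log2(TPM + 0.1)), 24 (low-Xist block) and 0 to 15 (leave-one-out) for Sox11 K91A against 15. DESeq2 called 2 genes between Sox11 K91A and Sox11. The causes of these differences were not tested.

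Sign changes were limited to differences without a call. Csgalnact2 was at -0.17 for Sox11 without Sox11 replicate 2. Chst11 ran from -0.43 (without control replicate 2) to 0.70 (without control replicate 1) for Sox11, with -0.05 without Sox11 replicate 1, and from -0.32 to 0.82 for Sox11 K91A without the same libraries, with -0.12 under the low-Xist block. Between Sox11 K91A and Sox11, without Sox11 replicate 2 the log2 difference was 1.12 for Csgalnact1, 0.015 for Chsy1, -0.06 for Chst11, -0.31 for Bcan, 0.24 for Vcan, -0.007 for Cspg5 and 0.11 for Ptprz1. Without Sox11 K91A replicate 2 it was 0.009 for Ncan, 0.15 for Vcan and -0.041 for Cspg5. At the other end of the leave-one-out range it was -1.29 for Csgalnact1, -0.47 for Chsy1, 0.30 for Chst11, 1.02 for Bcan, -0.93 for Vcan and -0.64 for Ptprz1 (without Sox11 replicate 1) and 0.27 for Cspg5 (without Sox11 K91A replicate 1). With the low-Xist block it was 0.46 for Csgalnact1, -0.25 for Chst11, -0.036 for Bcan, 0.21 for Vcan and 0.001 for Ptprz1, and for Csgalnact1 0.11 on log2(TPM + 1) and 0.49 on log2(TPM + 0.1).

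Deviations of same-numbered libraries correlated weakly for control with Sox11 (0.23), where replicate 2 of both groups was also low in Xist. The correlation was -0.03 for control with Sox11 K91A and -0.23 for Sox11 with Sox11 K91A. Without a common sign over the groups, numbers were not taken as pairs. A replicate block gave 8 of the 10 genes for Sox11 and 5 for Sox11 K91A, 2679 and 1402 of all genes, and 22 and 14 pathway genes, and 0 in the direct comparison. With this block Csgalnact1 passed in both comparisons (-2.60 and -3.00 in log2, adjusted p = 0.0473 and 0.0464) and Chpf no longer passed for Sox11 K91A (adjusted p = 0.0523). A block with the Sox11 K91A numbers exchanged, added after seeing the data, also called 0 genes between Sox11 K91A and Sox11. A filter of at least 10 counts in every library removed Csgalnact1 alone of the 10 genes. Depth limits Csgalnact1, with at most 22 counts in a library with a Sox11 virus, and Vcan in control.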
